A study of Mus musculus with 22 samples.

Results

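The 7 genes of the Fos and Jun families were followed through 22 RNA-seq libraries of depolarized mouse cortical neurons, by matching the gene symbols Fos, Fosb, Fosl1, Fosl2, Jun, Junb and Jund among the 24490 entries of each library. All 7 were found, and 6 of them had a mean of at least 1 FPKM (fragments per length of transcript and size of library), the minimum set for testing. The neurons came from cortex of C57BL/6 mouse embryos at E16.5, labelled Creb1-/-, and were used after 7 days in vitro. Their activity was silenced with 1 µM TTX, which blocks sodium channels, and 100 µM D-AP5, which blocks NMDA receptors. A herpes simplex virus (HSV) delivered GFP alone, wild-type CREB (WT), CREB whose O-GlcNAc site, a serine, was changed to alanine (S40A), CREB whose phosphorylation site, also a serine, was changed to alanine (S133A), or CREB with both changes (S40A-S133A). Expression lasted 4 h (GFP, WT and S40A, 2 libraries each) or 8 h (GFP, WT and S40A, 4 libraries each, S133A and S40A-S133A, 2 each), and all groups, GFP included, then had 2 h in 55 mM KCl. Every library was therefore depolarized and labelled Creb1-/-, so neither the response to KCl nor the effect of the Creb1 deletion was measured. Whether replicates of a group came from separate cultures is not in the labels, and p-values here reflect the spread among these libraries, which may be technical.

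The products of these genes form AP-1, a transcription factor made of a Fos protein paired with a Jun protein, or of a pair of Jun proteins, through their leucine zippers. Fos, Fosb and Junb are immediate early genes, transcribed within minutes of calcium entry from factors already present in the neuron, and Fos is the standard marker of recent neuronal activity. CREB, phosphorylated at the residue lost in S133A, is a textbook regulator of Fos, acting at cAMP response elements (CRE) together with the serum response factor. Jund is known for steady expression in resting cells.

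The 250 bases before the RefSeq start sites are shown for Fos, Fosb, Junb and Jun, the 4 members whose windows held letters searched for. Sequences are from GRCm38.p6, the mm10 build, each 5′ to 3′ on the gene's strand, and the viruses supply a factor that binds CRE letters. Fosl2, not shown, moved with Fos across libraries about as closely as Jun did (Pearson's r 0.92, against 0.91 for Jun). RefSeq's promoter table held 6 of the 7 genes, and Fosl1 had no entry. Capitals mark TGACG, the core of a CRE, and in Jun the letters TGACATCA, a variant of the AP-1 element, and CTATTTTTAG, a match to the MEF2 consensus.
Fos (chr12:85473640-85473889, + strand): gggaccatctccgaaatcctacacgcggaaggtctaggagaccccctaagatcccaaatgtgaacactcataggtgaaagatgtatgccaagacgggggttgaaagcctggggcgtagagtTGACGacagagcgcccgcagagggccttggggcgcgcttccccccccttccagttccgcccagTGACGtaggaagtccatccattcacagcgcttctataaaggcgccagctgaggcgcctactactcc
Fosb (chr7:19310046-19310295, - strand): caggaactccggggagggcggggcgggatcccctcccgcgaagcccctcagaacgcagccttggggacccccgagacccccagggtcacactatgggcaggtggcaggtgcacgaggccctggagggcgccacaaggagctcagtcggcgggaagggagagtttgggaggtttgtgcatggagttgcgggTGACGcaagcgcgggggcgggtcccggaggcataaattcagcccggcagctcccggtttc
Junb (chr8:84978749-84978998, - strand): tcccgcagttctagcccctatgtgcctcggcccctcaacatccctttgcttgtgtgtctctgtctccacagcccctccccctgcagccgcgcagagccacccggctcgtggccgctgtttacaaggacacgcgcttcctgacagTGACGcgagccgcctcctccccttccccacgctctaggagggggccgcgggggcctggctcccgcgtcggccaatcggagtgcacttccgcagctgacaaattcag
Jun (chr4:95052223-95052472, - strand): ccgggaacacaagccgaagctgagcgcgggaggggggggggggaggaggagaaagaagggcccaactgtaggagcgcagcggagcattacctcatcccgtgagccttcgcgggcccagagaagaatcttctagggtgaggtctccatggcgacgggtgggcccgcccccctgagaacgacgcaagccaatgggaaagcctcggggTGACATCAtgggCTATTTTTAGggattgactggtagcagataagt
Counted back from the start, TGACG began at -129 and -66 in Fos, at -60 in Fosb and at -106 in Junb. In Jun, TGACATCA covered -45 to -38 and CTATTTTTAG covered -33 to -24. The window of Fos also held TATAAA from -33 to -28. On both strands, TGACG was found in 17.9% of 32536 RefSeq windows of the same length, TGACATCA in 2.84% and the MEF2 consensus, which can overlap TATAAA, in 2.89%. TATAAA was found on the forward strand in 7.55%. The full CRE TGACGTCA, which contains TGACG and was in 1.56% of windows, and the AP-1 element TGACTCA, in 4.45%, matched none of the 6 members' windows. The Fosl2 and Jund windows, before RefSeq starts from which those of GENCODE M21 differ, held none of the letters searched. These are matches of letters and not shown binding sites.

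The libraries fall into 6 runs by the numbers the authors gave them. The labels do not say what these numbers stand for, and run, earlier and later are names given here by number alone. Replicate 1 of each 4 h group is run A and replicate 2 is run B. The 8 h libraries make an earlier set, with replicate 1 (run C1) and replicate 2 (run C2) of GFP, WT and S40A, and a later set. The later set has replicate 3 of GFP, WT and S40A together with replicate 1 of both S133 mutants as run D1, and replicate 4 together with their replicate 2 as run D2. Every run holds 1 library of each virus in it, so virus groups can be compared inside a run. Time of expression and run cannot be told apart at 4 h against 8 h. Creb1, supplied by the virus, lay at 9.69 to 15.9 scaled FPKM in the 6 GFP libraries and at 236 to 2314 in the 16 CREB libraries. Intervals in the files correspond to an estimated 10.8 to 21.2 M fragments (M for mega) per library if read as 2 SD of a count. Pan-neuronal markers were all at 1 FPKM or more (6 of 6, Stmn2 highest at a mean of 894), as were 8 of 8 excitatory and 9 of 9 inhibitory neuron markers. Astrocyte and radial glia markers reached the same level for 7 of 8, oligodendrocyte markers for 6 of 7, microglia markers for 2 of 10, vascular markers for 2 of 9 and dividing cell markers for 5 of 5. One library was unlike the rest: GFP at 8 h, replicate 2, correlated at most at 0.940 with another library, and each of the others at 0.982 or more with its nearest. Run A's tables differed in make. Between 88.2% and 88.9% of their FPKM values lay inside the authors' own interval, against all values in the other runs, so run B against run A is a comparison of tables made differently as well as of libraries. Several members were among the values outside. Fos, Junb and Jund lay above their interval in each run A library, and Fosb with GFP and WT, while Fosl2 and Jun lay inside. Fos with GFP had 278 before scaling, against an interval of 247 to 260.

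Levels below are FPKM scaled between libraries. They are per length, so genes may be compared with each other. In the mean of 22 libraries Fos was highest at 540.3, followed by Junb at 331, Fosb at 251, Fosl2 at 91.7, Jund at 59.9, Jun at 45.0 and Fosl1 at 0.419. The first 4 kept this order inside each library, with Fos above Junb, Junb above Fosb and Fosb above Fosl2 in 22 of 22. The lower places were not fixed: Fosl2 was above Jund in 14 of 22 libraries and Jund above Jun in 17 of 22. Spread between libraries went with the member as well. The highest library exceeded the lowest 17.5-fold for Fosl2, 12.5-fold for Fosb, 6.81-fold for Junb and 5.01-fold for Fos, but only 2.53-fold for Jund and 2.47-fold for Jun. The authors' intervals had bounds 0.903% to 6.10% from their middle for these 6 genes, far narrower than the spread between libraries.

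**Figure D1:**
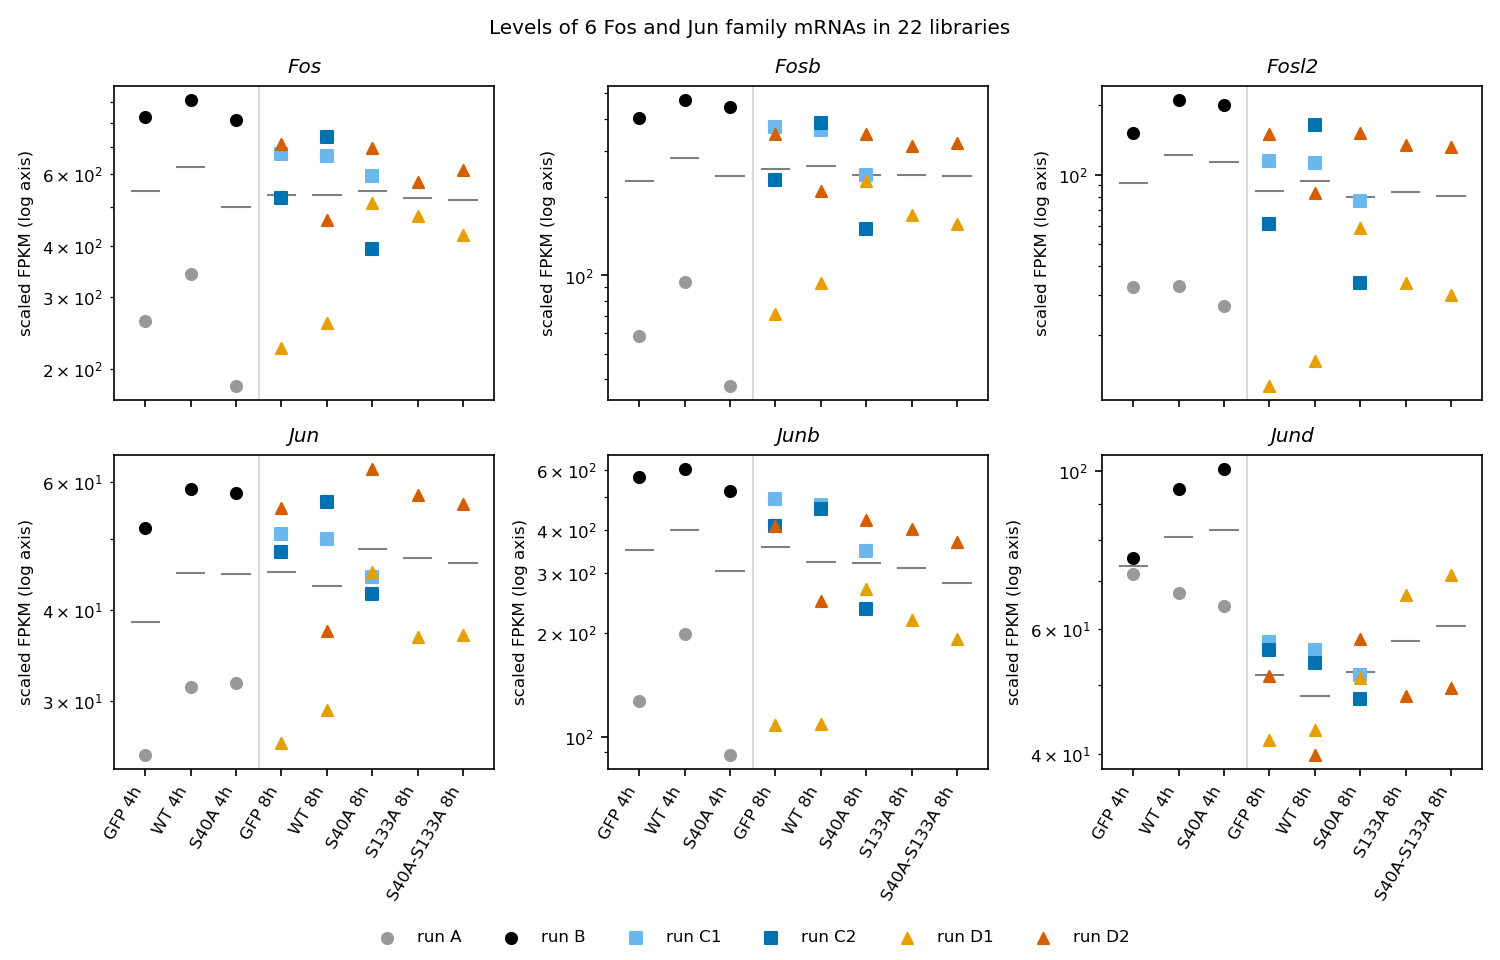
Level of the 6 tested members in all 22 libraries, in scaled FPKM on log axes that differ between panels, by virus group and time, with 1 point per library coloured by run and a grey line at the group's mean. Fosl1, mostly listed at 0, is not drawn. Within a virus group the points spread by run, from 225 to 713 for Fos in the 4 GFP libraries at 8 h, and the groups overlap.

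Fos (chromosome 12, 85473901 to 85477270, + strand, mm10, protein coding) encodes the founding Fos protein, which binds DNA only with a Jun partner. At 4 h, run A gave 262 for GFP, 341 for WT and 182 for S40A, and run B gave 829, 910.5 and 816. The 3 libraries of run B were all above the 3 of run A. How many of all genes part these runs in this way was not counted, here or for the members below. By the test given below, 44.7% of all genes differed between runs A and B at an adjusted p under 0.05. At 8 h in the earlier set, C1 and C2 gave 674 and 524 with GFP, 664 and 741 with WT, and 593 and 393 with S40A. In the later set, D1 and D2 gave 225 and 713 with GFP, 259 and 465 with WT, 509.9 and 694 with S40A, 476 and 575 with S133A, and 427 and 613 with the double mutant. The lowest of the 16 libraries at 8 h were GFP and WT in D1, and the highest was WT in C2.

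Fosb (chromosome 7, 19302696 to 19310045, - strand) also gives rise to the truncated and long-lived ΔFosB by splicing, which gene-level values do not separate. Fosb at 4 h measured 58.6 (GFP), 94.3 (WT) and 37.6 (S40A) in run A, against 403, 470.4 and 444 in run B. The runs did not overlap. C1 and C2 held 373 and 233 with GFP, 361 and 384 with WT and 243 and 151 with S40A. With GFP the later set read 71.2 in D1 and 350.4 in D2, with WT 93.8 and 211, with S40A 231 and 350.2, with S133A 171 and 315, and with the double mutant 158 and 322. GFP and WT in D1 were the lowest at 8 h, as for Fos.

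Fosl2 (chromosome 5, 32136472 to 32157839, + strand) encodes Fra-2, a Fos protein without the C-terminal activation domain of Fos and Fosb, known for a later and longer response than Fos. At 4 h, run A gave 32.4 for GFP, 32.7 for WT and 26.9 for S40A, and run B gave 152, 210.3 and 200.5. Here too the runs were apart. C1 and C2 held 115 and 61.1 with GFP, 112 and 163 with WT and 76.7 and 33.9 with S40A. In the later set, D1 and D2 gave 12.0 and 151 with GFP, 15.4 and 83.4 with WT, 58.6 and 152 with S40A, 33.7 and 134 with S133A, and 29.9 and 132 with the double mutant. Each D2 library lay above all 5 D1 libraries. Between these runs 30.3% of all genes differed at an adjusted p under 0.05, by the same test.

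Fosl1 (chromosome 19, 5447698 to 5455938, + strand) encodes Fra-1, the other Fos protein without that domain. It was listed at 0 in 19 of 22 libraries and had 2.59 in replicate 2 of GFP at 4 h, 3.25 in replicate 2 of S40A at 4 h and 3.39 in replicate 2 of WT at 8 h, with interval bounds 19.0% to 22.8% from the middle. A 0 in such files can be a failed estimate, though no Fosl1 value was flagged as failed. Fosl1 overlaps Ccdc85b on the opposite strand, which had 6.09 to 16.0 in every library, and whether counting used strand is unknown from the sources at hand. Its mean was under the minimum and it was not tested.

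Junb (chromosome 8, 84976909 to 84978748, - strand) encodes the Jun protein that pairs with Fos and FosB in stimulated neurons and activates less than Jun on single elements. Junb at 4 h measured 127 (GFP), 199 (WT) and 88.6 (S40A) in run A, against 573, 604 and 520.1 in run B. Run B was above run A throughout. At 8 h in the earlier set, C1 and C2 gave 494 and 411 with GFP, 473 and 463 with WT, and 347 and 236 with S40A. With GFP the later set read 108 in D1 and 413 in D2, with WT 109 and 248, with S40A 269 and 427, with S133A 219 and 403, and with the double mutant 193 and 369. WT and GFP in D1 held the lowest Junb at 8 h.

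Jun (chromosome 4, 95049036 to 95052222, - strand) encodes the target of the JNK kinases and overlaps the antisense gene Junos, and without stated strand handling reads of the pair may be mixed. At 4 h, run A gave 25.3 for GFP, 31.3 for WT and 31.7 for S40A, and run B gave 51.8, 58.6 and 58.0. The level moved less than that of Fos or Junb, yet the runs stayed apart. C1 and C2 held 50.8 and 48.0 with GFP, 50.0 and 56.3 with WT and 44.3 and 42.1 with S40A. In the later set, D1 and D2 gave 26.3 and 55.2 with GFP, 29.2 and 37.4 with WT, 45.2 and 62.5 with S40A, 36.7 and 57.5 with S133A, and 37.0 and 55.8 with the double mutant. D2 was above D1 for each virus, but the WT library of D2, at 37.4, fell inside the D1 range.

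Jund (chromosome 8, 70697739 to 70700616, + strand) encodes the third Jun protein, and its deposited position begins upstream of the GENCODE M21 start and overlaps the antisense gene Gm11175. Jund at 4 h measured 71.7 (GFP), 67.4 (WT) and 64.6 (S40A) in run A, against 75.5, 94.3 and 101 in run B. The gap between the runs was small beside that of the other members. At 8 h in the earlier set, C1 and C2 gave 57.5 and 56.0 with GFP, 56.1 and 53.7 with WT, and 51.6 and 47.9 with S40A. With GFP the later set read 41.8 in D1 and 51.6 in D2, with WT 43.2 and 39.9, with S40A 51.2 and 58.0, with S133A 67.1 and 48.3, and with the double mutant 71.4 and 49.5. Neither D1 nor D2 was uniformly higher, and the 2 highest libraries at 8 h were S133A and the double mutant in D1.

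The main question of the design is whether CREB, and CREB without either modification site, changes transcript levels. The 16 libraries at 8 h were fitted with limma on log2(scaled FPKM + 1), which understates changes of low genes, with a term for the set, and p-values were adjusted by the Benjamini-Hochberg method over all 11932 genes tested. No member was called, at an adjusted p under 0.05, when the 4 CREB forms together were compared with GFP (0 of 6, with 0.0251% of all genes called, and 0 of 6 at an unadjusted p under 0.05). The log2 difference, CREB minus GFP, was 0.19 (SE 0.31) for Fos, with a 95% interval of -0.49 to 0.86. It was 0.23 (SE 0.46) for Fosb and 0.32 (SE 0.76) for Fosl2. Among the Jun genes it was 0.12 (SE 0.22) for Jun, 0.10 (SE 0.41) for Junb and 0.11 (SE 0.12) for Jund, and the 6 adjusted p-values lay between 0.89 and 0.98. Fosl2 had the widest interval, from -1.34 to 1.98, while for Jund the interval was -0.16 to 0.38. In these same libraries the log2 difference of Creb1 was 6.33.

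Each form was also set against GFP alone. WT against GFP (0.00838% of all genes called), S40A against GFP (0.00838%), S133A against GFP (0.0251%) and S40A-S133A against GFP (0.0168%) each called 0 of 6 members, with 0 at an unadjusted p under 0.05. At 4 h the same was found for WT against GFP (0.0994% of 12075 genes called), S40A against GFP (0.0911%) and S40A against WT (0.0911%). That 4 h fit had no term for the run, although libraries with the same replicate number deviated together. The SE of Fos in WT against GFP was 1.02 there, and 0.21 with the replicate number as a block. With the block, 1 of 6 members had an unadjusted p under 0.05 in each 4 h comparison, and 0 of 6 were called. Whether an effect differed between 8 h and 4 h was tested in 1 fit of all 22 libraries, again with 0 of 6 members called for WT against GFP (0.0165% of 12087 genes), S40A against GFP (0.00827%) and S40A against WT (0.0248%). Inside a run the sign of WT against GFP was not fixed. WT gave 0.985 times the Fos of GFP in C1, 1.41 in C2, 1.15 in D1 and 0.652 in D2, and at 4 h 1.30 in run A and 1.10 in run B. Across the 6 tested members WT was above GFP for all 6 in runs B and D1, for 5 in runs A and C2, and for none in C1 and D2. Members other than Jund moved closely together, so such counts of signs, here and below, are not separate results. The share of all genes with the same sign inside a run was not counted. Without replicate 2 of GFP at 8 h, the library that stood apart, the Fos difference between the CREB forms and GFP was 0.15, against 0.19 with it. Leaving out each library in turn gave -0.21 (without replicate 3 of GFP) to 0.52 (without replicate 4 of GFP).

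**Figure D2:**
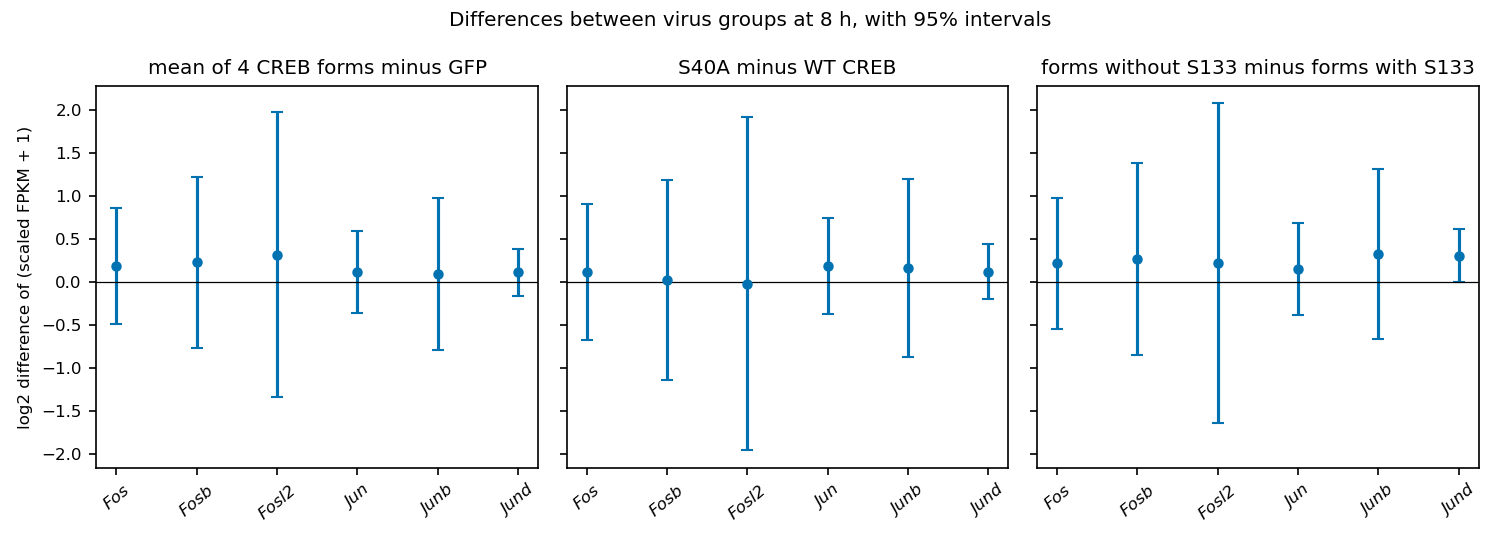
Log2 difference of the 6 tested members at 8 h, as points with 95% intervals from limma, for the 4 CREB forms minus GFP (left), S40A minus WT (middle), and S133A and S40A-S133A minus WT and S40A (right). All 18 intervals span 0 except that of Jund on the right, from 0.01 to 0.61, and none of the 18 passed after adjustment.

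Loss of the O-GlcNAc site was tested as S40A against WT. Over both sets at 8 h no member was called (0 of 6, 0% of all genes called, 0 of 6 at an unadjusted p under 0.05), with log2 differences of 0.12 (SE 0.36) for Fos, 0.03 (SE 0.54) for Fosb, -0.02 (SE 0.89) for Fosl2, 0.19 (SE 0.26) for Jun, 0.17 (SE 0.48) for Junb and 0.12 (SE 0.15) for Jund. These averages hide opposite signs. In the earlier set S40A was below WT for 6 of 6 members in C1 and in C2, and in the later set above WT for 6 of 6 in D1 and in D2. The S40A level of Fos was 0.892 and 0.530 times that of WT in C1 and C2, and 1.97 and 1.49 times in D1 and D2. For Fosl2 the 4 ratios were 0.682, 0.207, 3.80 and 1.82. The 4 h libraries had S40A below WT for 5 of 6 members in each run, with Fos at 0.533 in run A and 0.896 in run B. The test of the difference between the sets (later minus earlier) gave log2 values of 1.31 (SE 0.68) for Fos, 1.96 (SE 0.98) for Fosb, 2.75 (SE 1.74) for Fosl2, 0.96 (SE 0.48) for Jun, 1.75 (SE 0.87) for Junb and 0.53 (SE 0.27) for Jund. It did not pass for any member (0 of 6, 0.00838% of all genes called, 0 of 6 at an unadjusted p under 0.05, each adjusted p = 0.80). That fit had no term for the run. With the replicate number as a block, 5 of 6 members had an unadjusted p under 0.05, and 0 of 6 were called (lowest adjusted p = 0.27). Immediate early genes outside the family shifted likewise between the sets, with 21 of 25 above 0 and 4 below (median 1.23), where 48.4% of all genes were above 0. In S40A against WT at 4 h, 3 of 24 such genes were above 0 and 21 below, and none was called in either comparison. For WT against GFP (0.0168% of all genes) and S40A against GFP (0.00838%) the difference between the sets also called 0 of 6 members.

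Loss of the phosphorylation site was tested as the mean of S133A and S40A-S133A minus the mean of WT and S40A. All 6 differences were above 0, at 0.22 (SE 0.35) for Fos, 0.27 (SE 0.51) for Fosb, 0.22 (SE 0.85) for Fosl2, 0.15 (SE 0.25) for Jun, 0.33 (SE 0.46) for Junb and 0.31 (SE 0.14) for Jund. None was called (0 of 6, 0.0251% of all genes called). The signs were not fixed: without the set term Fosl2, Fosb and Junb were below 0 (-0.10, -0.0154 and -0.0629), as were Fos and Fosb without replicate 3 of WT, Jun without replicate 2 of S133A, and Fosl2 without any 1 of 4 libraries (lowest -0.34). Jund alone had an unadjusted p under 0.05, at 0.046, which became 1.00 after adjustment. Inside D1 and D2, the runs that hold these mutants, both mutants were above WT for 6 of 6 members in each run. Both were below S40A for 5 of 6 members in D1, all but Jund, and for 6 of 6 in D2. S133A had 1.83 and 1.24 times the Fos of WT, and the double mutant 1.64 and 1.32 times. Against GFP the runs went apart, since both mutants exceeded GFP for 6 of 6 members in D1 but for 1 of 6 in D2. For Fos, S133A had 2.11 times GFP in D1 and 0.807 times in D2. S133A against WT (0.0168% of all genes called) and S40A-S133A against WT (0.00838%) called 0 of 6 members, with 0 at an unadjusted p under 0.05.

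Comparisons between runs, with all viruses in each run, did call members, and not all alike. In D2 against D1, with the virus as a term, 5 of 6 members rose, where 15.8% of all 11788 genes tested were called higher, 14.6% lower and 30.3% either way. The log2 difference, D2 minus D1, was 2.26 (SE 0.29, adjusted p = 0.0048) for Fosl2 and 1.19 (SE 0.24, adjusted p = 0.016) for Fosb. It was 1.12 (SE 0.18, adjusted p = 0.0086) for Junb, 0.75 (SE 0.20, adjusted p = 0.037) for Fos and 0.61 (SE 0.10, adjusted p = 0.009) for Jun. Jund did not pass, at -0.12 (SE 0.14, adjusted p = 0.51). The direction was the same for each virus. The 5 ratios of D2 to D1, 1 per virus, were 2.59 to 12.5 for Fosl2, 1.52 to 4.92 for Fosb, 1.59 to 3.83 for Junb, 1.21 to 3.17 for Fos and 1.28 to 2.10 for Jun, but 0.692 to 1.23 for Jund, higher in 2 of 5. The call for Fos was the least stable of these, and was lost when any 1 of the 8 CREB libraries was left out (adjusted p up to 0.11) and kept without either GFP library. That for Fosb was lost without replicate 3 of WT, replicate 4 of WT or replicate 1 of S40A-S133A (adjusted p up to 0.056).

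The CREB libraries of D2 held more Creb1 than those of D1, at 1861 to 2314 against 555 to 745. In the GFP pair, without CREB from the virus, Creb1 was 14.9 in D1 and 11.3 in D2, and this pair had the largest ratio of the 5 for Fos, Fosb, Fosl2, Jun and Junb. Its Fosl2 went from 12.0 to 151 and its Fos from 225 to 713. The GFP pair is 1 library per run, and the part of the Creb1 level in the run difference was not tested. Pan-neuronal markers summed to 1669 to 1941 in D1 and 1580 to 1682 in D2, with 2 of 6 called lower. Excitatory neuron markers summed to 341 to 408 and 338 to 409, with 1 of 8 called lower. Dividing cell markers summed to 13.5 to 27.3 and 23.2 to 27.6, with 1 of 4 tested called higher. Astrocyte and radial glia markers summed to 66.0 to 303 and 84.2 to 249, with 0 of 7 called. Inhibitory neuron markers summed to 291 to 469 and 411 to 604, with 4 of 9 called higher. Of vascular markers, 1 of 2 tested was called higher. These counts stand beside 15.8% of all genes called higher and 14.6% lower. The part of these cells in the result was not tested. Fewer cells of a type and less RNA per cell cannot be told apart in such bulk libraries.

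**Figure D3:**
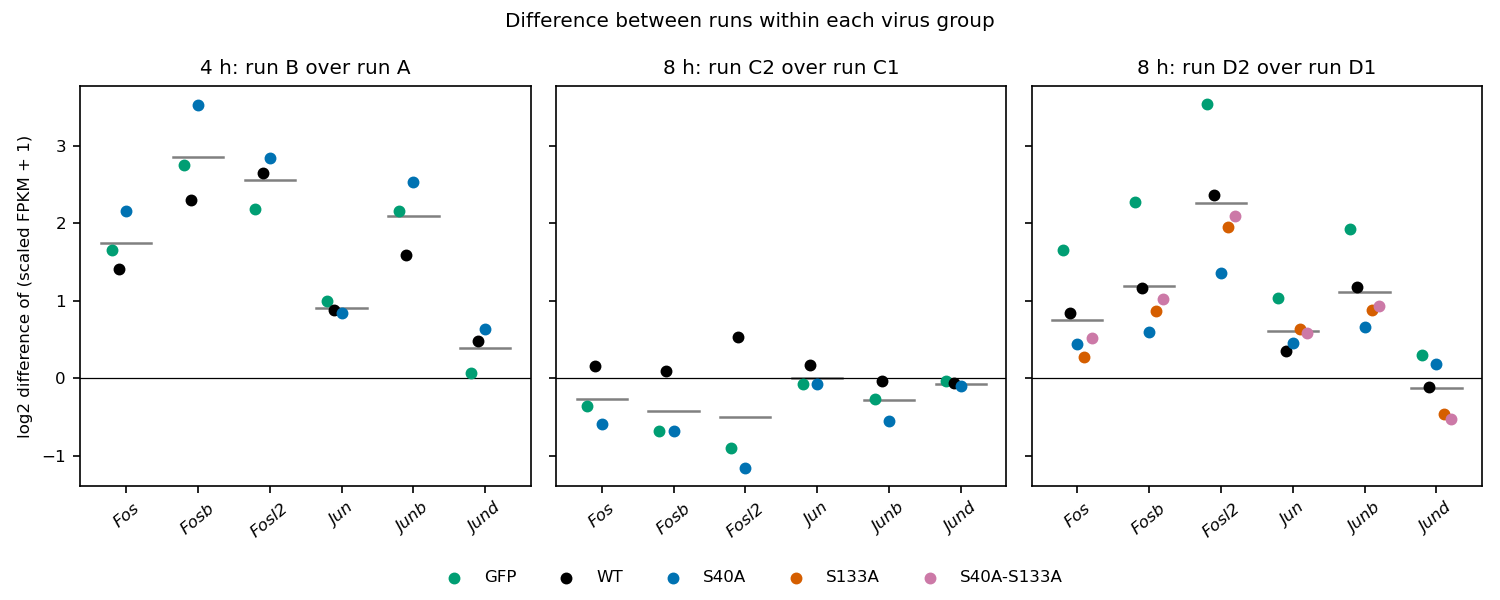
Log2 difference between the 2 runs of a pair for each of the 6 tested members, with 1 point per virus group and a grey line at their mean: B over A at 4 h (left), C2 over C1 (middle) and D2 over D1 (right) at 8 h. For Fos, Fosb, Fosl2, Jun and Junb all points on the left and right lie above 0, while Jund on the right has 2 of 5 above 0 and Fosl2 in the middle goes both ways.

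At 4 h, run B against run A compares tables made differently, so run and processing cannot be told apart. The same 5 members rose, where 21.2% of 12075 genes were called higher, 23.5% lower and 44.7% either way. The log2 difference, B minus A, was 2.86 (SE 0.25, adjusted p = 0.0038) for Fosb and 2.56 (SE 0.15, adjusted p = 0.0013) for Fosl2. It was 2.10 (SE 0.20, adjusted p = 0.0045) for Junb, 1.74 (SE 0.17, adjusted p = 0.0047) for Fos and 0.91 (SE 0.07, adjusted p = 0.0024) for Jun. Mean Fosb was 63.5 ± 28.7 (SD, n = 3) in run A and 439 ± 34.1 (SD, n = 3) in run B. The 3 libraries of each run are GFP, WT and S40A, so this SD holds differences between viruses and is not a spread of replicates. Jund missed the threshold at 0.40 (SE 0.13, adjusted p = 0.067), with an unadjusted p of 0.033 and B above A in 3 of 3 virus groups, and passed at 0.42 (adjusted p = 0.047) when the middle of the authors' interval replaced FPKM, an alternative chosen after seeing the data. Without either GFP library Jund also passed, at 0.56 (adjusted p = 0.017 in both). With interval midpoints the other 5 members kept their calls, at 2.87 for Fosb, 2.54 for Fosl2, 2.19 for Junb, 1.82 for Fos and 0.92 for Jun. Creb1 in the CREB libraries was 236 to 248 in run A and 250 to 269 in run B. Dividing cell markers summed to 87.1 to 152 in run A and 42.5 to 44.9 in run B, with 4 of 5 called lower, and astrocyte and radial glia markers to 244 to 770 and 169 to 287, with 1 of 7 called lower. Inhibitory neuron markers summed to 578 to 790 and 607 to 696, with 2 of 9 called higher and 1 lower. Of oligodendrocyte markers 1 of 6 tested was called higher, and of microglia markers 1 of 4 tested was called lower. Pan-neuronal markers summed to 1293 to 1480 in run A and 1644 to 1774 in run B, with 3 of 6 called higher, and excitatory neuron markers to 264 to 286 and 287 to 326, with 3 of 8 called higher and 2 lower. The part of these cells in the result was not tested.

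In the earlier set, C2 against C1 called 0 of 6 members, with 0 at an unadjusted p under 0.05, where 0.0418% of 11952 genes were called. The log2 differences, C2 minus C1, ran from -0.51 to 0.00. Without replicate 2 of GFP they ran from -0.31 for Fosl2 to 0.05 for Jun, and none was called. Virus groups went opposite ways there: Fosl2 went from 112 to 163 with WT, and was lower in C2 with GFP (115 to 61.1) and S40A (76.7 to 33.9). Scaling matters to the all-gene background but to none of the 5 calls. With FPKM as deposited, the median of all genes moved to -0.13 in D2 against D1 and -0.27 in B against A, and 18.5% and 18.1% of the calls were higher, against 52% and 47.4% after scaling. The same 5 members kept their calls in both, while Jund stood at -0.28 and 0.12 and was called in neither.

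The make-up of the family shifted with its total. The 7 levels summed to 431 to 766 in run A, 2087 to 2348 in B, 1355 to 1764 in C1, 904 to 1865 in C2, 484 to 1165 in D1 and 1085 to 1744 in D2. Fos made up 37.5% to 47.4% of the sum over all libraries. The share of Fosl2 was 4.27 to 6.24% in run A and 7.28 to 9.36% in B, and 2.48 to 5.03% in D1 and 7.69 to 8.73% in D2, without overlap in either pair. Fosb went from 8.73 to 12.3% to 19.3 to 20.7% between A and B, and from 14.7 to 19.8% to 19.5 to 20.9% between D1 and D2, where the ranges overlap. Jund did the reverse, with 8.80 to 15.0% in A and 3.62 to 4.71% in B, and 4.39 to 8.63% in D1 and 2.97 to 3.68% in D2. Set against Fos, the Fosl2 level was 0.0959 to 0.148 times in A, 0.183 to 0.246 in B, 0.0534 to 0.115 in D1 and 0.179 to 0.233 in D2. Jund exceeded Jun 2.04 to 2.83 times in A, and in D2 the ratio was 0.840 to 1.07. The summed Fos genes exceeded the summed Jun genes in all 22 libraries, by 1.33 to 2.34 times. These shares are descriptions of the same levels and were not tested.

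**Figure D4:**
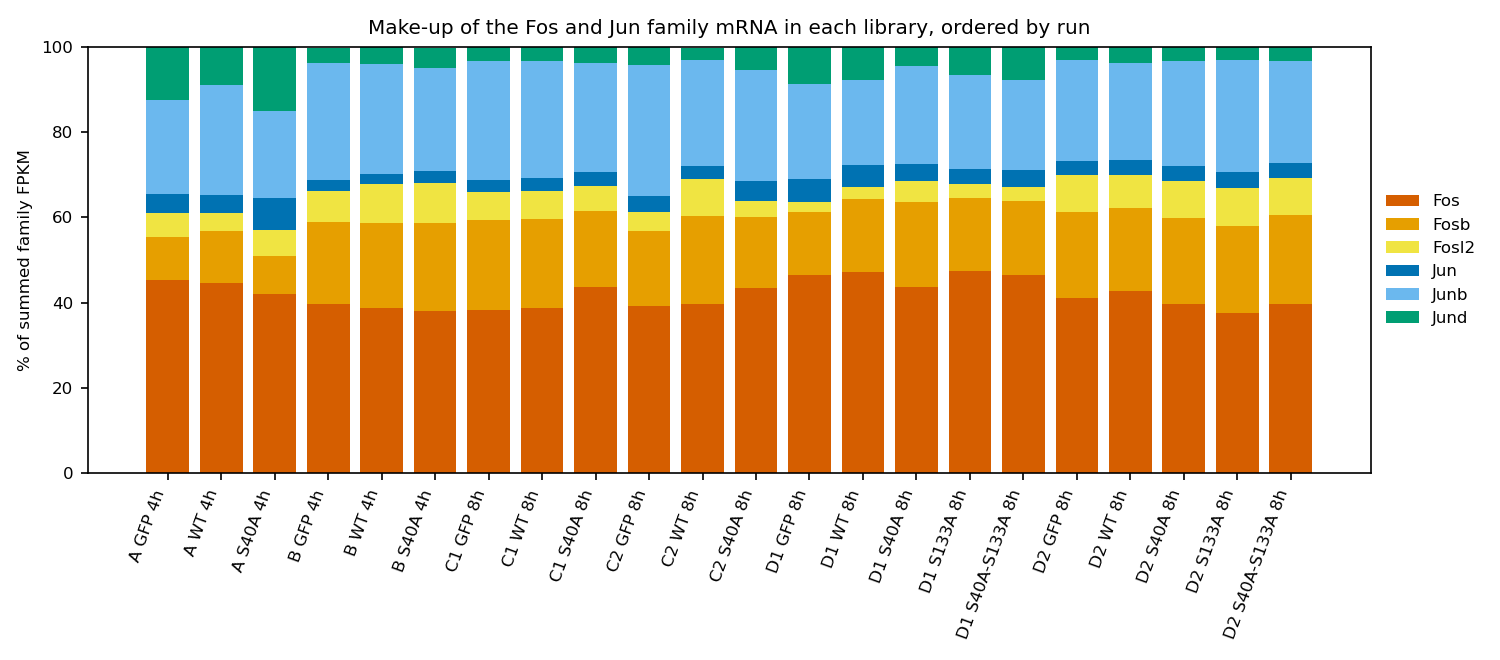
Share of each member in the summed level of the family, in percent, as stacked bars, 1 bar per library in order of run. Fosl1 is not drawn, as it never passes 0.182%. Fosl2 takes 7.28% to 9.36% in run B and 7.69% to 8.73% in D2 against 2.48% to 5.03% in D1, while Jund takes its largest shares in run A.

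The members other than Jund followed each other closely. On log2(scaled FPKM + 1) over 22 libraries, which share runs and depth, Pearson's r was 0.98 for Fos with Fosb, 0.98 with Junb, 0.92 with Fosl2 and 0.91 with Jun. Jund had r of 0.18 to 0.31 with the other 5. Among 11059 named genes tested, the 5 most like each member were listed by the same r. For Fos they were Fosb, Junb, Gla (0.968), Nr4a3 (0.963) and Armcx4 (0.961). Those of Fosb were Fos, Cwc25 (0.977), Junb, Egr2 (0.964) and Tiparp (0.955). Nr4a3 encodes an orphan nuclear receptor and Egr2 a zinc finger factor, and both are immediate early genes. Junb was nearest to Nr4a1 (0.984), then Fos, Gla (0.972), Nr4a3 (0.967) and Fosb. Fosl2 had none of the family among its 5, which were Nfil3 (0.986), a bZIP repressor, Trib1 (0.975), a pseudokinase, Dusp6 (0.963), a dual-specificity phosphatase, Homer1 (0.962), a postsynaptic scaffold, and Arl5b (0.961). Jun was nearest to Nfil3 (0.945), D17Wsu92e (0.924), Tiparp (0.923), Coq10b (0.923) and Fosb. Jund had a separate group, Ppm1a (0.935), a protein phosphatase, Arnt2 (0.927), a bHLH-PAS factor, Ubald1 (0.927), Arhgap35 (0.922) and Peli2 (0.915).

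Other genes of the pathway were counted in the same run comparisons, from lists chosen by function. Each count stands beside 15.8% of all genes called higher and 14.6% lower in D2 against D1, and 21.2% higher and 23.5% lower in B against A, and no list was tested as a set. Immediate early genes outside the family rose together with the 5 members: 22 of 25 tested were called higher and 0 lower in D2 against D1 (median log2 difference 1.11, against 0.01 for all genes), and 20 of 24 higher and 1 lower in B against A (median 1.49, against -0.02). Egr4, a zinc finger factor, differed by 3.02 and 3.69, and Homer1 by 2.09 and 3.10. Nr4a2 differed by 1.73 in D2 against D1 and Egr3 by 3.02 in B against A, and Ier3 was the gene called lower, at -0.70. The highest gene of the list was Nr4a1, with a mean of 320.4.

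Other bZIP proteins that pair with Fos or Jun were called higher for 8 and lower for 1 of 11 in D2 against D1 (median 0.46), and higher for 7 of 11 in B against A (median 0.62). Maff, a small Maf protein, differed by 1.84 and 1.86, and Atf3, a stress-induced ATF, by 1.41 and 2.23. Mafk stood at 1.31 in D2 against D1, where Atf2 was the gene called lower (-0.26), and Maf at 1.54 in B against A. Atf4 had the highest mean of the list, at 300.0.

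Factors that act on the Fos and Jun promoters were called higher for 6 and lower for 1 of 13 in D2 against D1 (median 0.37), and higher for 8 of 13 in B against A (median 0.47). The 6 include Creb1 (1.32), which the virus supplies. Crem, a relative of CREB with an inducible repressor form, differed by 1.16 and 1.34, Srf, the serum response factor, by 0.65 in D2 against D1, and Mef2a by -0.14. Mef2c and Stat3 differed by 0.97 and 0.72 in B against A.

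Of the kinases that signal to the family, 1 of 15 was called higher and 3 lower in D2 against D1 (median -0.03), and 5 higher and 1 lower in B against A (median 0.09). The JNK genes Mapk8, Mapk9 and Mapk10 were the 3 called lower in D2 against D1, at -0.18, -0.25 and -0.24, and Map2k1 the one higher, at 0.24. In B against A, Mapk8 and Mapk9 were higher, at 0.49 and 0.36, as was Rps6ka5, the MSK1 gene, at 0.64, and Rps6ka2 was lower, at -0.49.

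Genes of transcript and protein turnover were called higher for 5 and lower for 1 of 12 in D2 against D1 (median 0.19, with 15.8% and 14.6% of all genes), and higher for 4 and lower for 1 of 12 in B against A (median 0.26, with 21.2% and 23.5% of all genes). Btg2, an antiproliferative factor that recruits deadenylases, differed by 1.19 and 2.19. Zfp36l2 and Zfp36, which bind AU-rich elements, differed by 1.03 and 0.98 in D2 against D1, with Elavl1 lower at -0.15. In B against A, Fbxw7, the ubiquitin ligase receptor for Jun, was at 0.40, Elavl3, the highest gene of the list at a mean of 81.3, at 0.45, and Rfwd2, the COP1 ubiquitin ligase, was lower at -1.61.

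Known AP-1 target genes were called higher for 6 and lower for 1 of 14 in D2 against D1 (median 0.56, beside the same 15.8% and 14.6%), and higher for 4 and lower for 1 of 12 in B against A (median 0.41, beside 21.2% and 23.5%). Bcl2l11, which encodes the death promoter Bim, was at 1.35 and 1.35, and Hrk, another such factor, at 1.71 in B against A. Spp1 and Scg2, the secretogranin gene with the highest mean of the list (61.2), were at 1.74 and 1.04 in D2 against D1, where Cdk5 was lower at -0.18. In B against A, Gclc was at 0.54 and Penk, the proenkephalin gene, lower at -1.03. Between virus groups, Creb1 was the single gene of these 6 lists that was called in any comparison.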

How the data were processed

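RNA-seq libraries of Creb1-/- neurons, 22 in all, were analysed from 22 tables of FPKM values, 1 per library, that the authors deposited. The submitters' processing notes name Cufflinks, Bowtie 0.12.2 and CASAVA 1.7 as tools, and mm10 and mm8 as builds, with no role given. Gene positions in the files lie on mm10. Strand handling and the assignment of reads matching several places are not given in the sources used here. Groups came from the labels, and runs from the numbers the authors gave the libraries. No 2 tables held identical values.

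Deposited FPKM was divided by a median-of-ratios factor per library, from 11517 genes, 1 was added and log2 taken. Genes averaging at least 1 FPKM over the libraries of a fit were tested with limma 3.58.1 in R 4.3.3 (mean-variance trend, moderated two-sided tests, p-values adjusted over all genes tested by Benjamini-Hochberg). A call needs an adjusted p under 0.05. The 23 entries with a failed estimate in any library, no member among them, were left out. The 8 h fit held 16 libraries and a term for the set (10 residual degrees of freedom), the 4 h fit 6 libraries (3), the joint fit 22 (13) and the fit of virus by set 16 (8). Run fits had the virus as a term (4 in the later set, 2 in the earlier set and at 4 h). The procedure was run on simulated data with independent noise of a fixed size, and with no run effect where virus groups were compared. That check does not show what size of member change these libraries could reveal. Summaries and figures used matplotlib 3.10.9, pandas 2.3.3, numpy 2.4.6 and Python 3.11.15, and GENCODE M21 for strands and overlaps.

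The members, gene lists and tests were chosen with earlier results of these data known. Genes named beside the members were the highest of each list (that of the kinase list is not reported here), up to 3 called genes per list and direction in a comparison, and the 5 nearest in pattern. Alternatives were another pseudocount (0.1), no minimum or a minimum of 5, no scaling, no set term, the later set only, each library left out, the replicate number as a block and, added after seeing the data, interval midpoints for the 4 h libraries. Fosl1 was below the minimum in the fits reported and was not tested there. At 4 h, libraries with the same replicate number deviated together (r 0.55 to 0.57). Deviations were taken from the mean of 2 libraries, so each r in run A is repeated in run B. Run A's tables were also made differently, so what the replicate numbers pair cannot be told. The block changed no member's call.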

Additional observations from a re-analysis of the deposited data

Results flagged for a closer look

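Among the 4 libraries of S40A at 8 h, replicate 4 lay far from the others for Jun, at 62.5 against 42.1 to 45.2, with a gap to its neighbour of 0.849 of the whole range, above Dixon's 95% limit for 4 samples. That library belongs to run D2, where Jun was called higher than in D1.

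Fosl1 was at 3.39 in replicate 2 of WT at 8 h, while the other 3 WT libraries at 8 h list it at 0, so the gap is the whole range. With 3 values at 0 any single value above 0 would give this gap, and a 0 can be a failed estimate, though none was flagged as such. In each of the 3 groups with 4 libraries the 7 members were examined where values were above 0, which made 19 groups of values, and chance passes this limit in about 1 in 20.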

How the results depend on the processing

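The count of members called stayed at 0 of 6 in each of the 18 comparisons or differences between virus groups under every alternative, each left-out library included. In D2 against D1 it was 5 throughout except with no minimum level, which left 4 (Fos at 0.75, adjusted p = 0.059), and 3 to 5 with a library left out. In B against A it was 5, 6 with interval midpoints, and 5 to 6 with a library left out. The sixth was Jund without a GFP library. Without a WT library it was Fosl1, which then passes the minimum only through the libraries of run B where it is above 0, so that call is set by the minimum and is no support.

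Counts over all genes moved more, though they were small. With the later set only, which uses 10 libraries, WT against GFP called 3 genes, S40A against GFP 3, S133A against GFP 5, S40A-S133A against GFP 6, the CREB forms against GFP 6, S40A against WT 1, S40A-S133A against WT 3 and loss of S133 6. A minimum of 5 gave 1 for the CREB forms against GFP, 1 for S133A against WT, 1 for loss of S133, 7 for S40A against WT at 4 h, 3 for C2 against C1, 1 for WT against GFP at 8 h minus 4 h, and, for later minus earlier set, 1 for WT against GFP and 0 for S40A against GFP. A pseudocount of 0.1 gave 1 for the CREB forms against GFP and, between the sets, 1 for WT against GFP and 0 for S40A against GFP. No minimum gave 2 for C2 against C1, 3 and 5 for S40A against GFP and against WT at 8 h minus 4 h, and between the sets 4 for WT against GFP, 3 for S40A against GFP and 2 for S40A against WT. Interval midpoints gave 0 in each of the 3 comparisons at 4 h and of the 3 between the times, where FPKM had called 12, 11, 11, 2, 1 and 3. Without scaling, D2 against D1 called 5453 genes. The cause of these shifts was not tested.

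Signs of uncalled member differences depended on the set term and on which set was used. Without the set term Junb was at -0.10 for the CREB forms against GFP, and loss of S133 gave -0.10 for Fosl2, -0.0154 for Fosb and -0.0629 for Junb. In the later set alone S40A against WT was 1.36 for Fosl2.

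Leaving out each library in turn gave, for the CREB forms against GFP, -0.21 to 0.52 for Fos, -0.34 to 0.66 for Fosb, -0.52 to 1.03 for Fosl2, -0.13 to 0.32 for Jun and -0.39 to 0.45 for Junb. For S40A against WT it gave -0.15 to 0.37 for Fos, -0.34 to 0.37 for Fosb, -0.69 to 0.48 for Fosl2 and -0.19 to 0.46 for Junb. Loss of S133 ranged over -0.00185 to 0.40 for Fos, -0.0390 to 0.54 for Fosb, -0.34 to 0.75 for Fosl2 and -0.00651 to 0.31 for Jun, and C2 against C1 over -0.0766 to 0.0474 for Jun. Counts over all genes then ranged over 3 to 9 for S133A against GFP, 2 to 10 for S40A-S133A against GFP, 2 to 11 for the CREB forms against GFP, 2 to 8 and 1 to 9 for these mutants against WT, and 3 to 11 for loss of S133. At 4 h they were 16 to 28 for WT against GFP, 16 to 35 for S40A against GFP and 6 to 27 for S40A against WT, and between the times 2 to 7, 1 to 11 and 3 to 14. Between the sets they were 3 to 491, 1 to 405 and 1 to 8 in the same order. Run comparisons called 1784 to 3859 genes for D2 against D1, 0 to 11 for C2 against C1 and 1130 to 5933 for B against A, lowest without replicate 4 of WT in the first and replicate 2 of S40A in the last.

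At 8 h, r between the deviations of libraries of the same run was -0.04 to 0.05 in the earlier set. In the later set it was 0.07 to 0.40, above 0 throughout, and D2 against D1 called 30.3% of all genes. Libraries of a run thus shared deviations in the later set, and the main 8 h fit has no term for the run. With the replicate number as a block no member was called, Fos being at 0.19 (SE 0.25, adjusted p = 0.79) for the CREB forms against GFP, and the counts over all genes changed to 2 and 2 for S40A against GFP and against WT between the sets. For S40A against WT between the sets the block left the differences as they were and 5 of 6 members had an unadjusted p under 0.05, against 0 without it. These were 0.00167 for Junb, 0.00197 for Jun, 0.00486 for Fosb, 0.00525 for Fosl2 and 0.0174 for Fos, with adjusted p from 0.27 to 0.29. For S40A against GFP between the sets it was 4 of 6 (lowest adjusted p = 0.48). At 4 h, Jun in WT and in S40A against GFP and Junb in S40A against WT had unadjusted p of 0.0376, 0.0369 and 0.0452, each adjusted p = 1.00.

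The spread between libraries was wider than the authors' intervals for the tested members. Several groups have 2 libraries, and some run fits have 2 residual degrees of freedom. The part of depth was not tested.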
